A study of Mus musculus with 21 samples.

Results

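Potassium channel genes were taken as every gene whose symbol starts with Kcn in both deposited count tables, which gave 94 genes of 21872. The name covers the pore-forming subunits of the channels and several of their auxiliary subunits. The study measured RNA in mouse brain after water (control) or trientine (TETA), a drug that binds copper, and the labels call the TETA mice copper-deficient. Controls comprised 6 libraries from embryonic day 18.5 (E18.5) and 5 from mice 7 weeks after birth; TETA comprised 6 and 4. No genotype or strain is given for any group, and nothing in the labels says how, when or for how long TETA was given, or whether libraries of a group came from separate animals, so p-values measure the spread between these libraries. The protocol text describes prefrontal cortex of male mice at 7 weeks; region and sex at E18.5 are not given in the sources used here.

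Potassium channels let potassium leave the cell and so set the resting potential, shape the action potential and limit repetitive firing. Voltage-gated Kv channels assemble from 4 subunits of related genes and bind auxiliary subunits (Kv beta proteins, KChIPs, KCNE proteins); inward rectifiers (Kir, the Kcnj genes) pass current mainly near rest, and some of them are opened by G proteins; two-pore-domain channels (K2P, the Kcnk genes) carry leak current. SK channels are opened by calcium, and the large-conductance Slo channels by calcium, sodium or pH, according to the gene. In the forebrain many of these genes are switched on as neurons and glia mature after birth.

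Each E18.5 library held between 14678265 and 24308555 counts, and each 7-week library between 17838051 and 24035857. Levels are CPM, the usual count divided by library size, with sizes adjusted by TMM factors over all 21 libraries, and CPM per kb, the same divided by the gene's exon length, where levels of different genes are compared. Of the 94 genes, 75 had enough counts to be tested at both stages, 3 at 7 weeks only (Kcng4, Kcnj13, Kcnmb1) and 2 at E18.5 only (Kcnh8, Kcnq1); 13 were tested in no comparison, among them the kidney gene Kcnj1, and 1 of these, Kcnk18, was at 0 in all 21 libraries. The remaining member, Kcnj15, entered only the comparison of effects between stages. Markers of striatum, the region next to the frontal cortex, moved with the treatment at 7 weeks: all 14 of 14 listed striatal genes were called lower in TETA, their summed level was 1112 to 1367 CPM in controls and 510 to 648 CPM in TETA, and none was at 0. At E18.5 that sum overlapped between the groups, at 576 to 648 CPM in controls and 589 to 614 CPM in TETA.

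At 7 weeks TETA was accompanied by lower RNA of 11 potassium channel genes and higher RNA of 3, out of 78 tested (edgeR quasi-likelihood test, adjusted p under 0.05). That is 17.9% of the members, against 9.96% of all 14240 genes tested. The calls were lower in 14.1% of members against 4.28% of all genes, and higher in 3.85% against 5.67%. The median log2 fold change of the tested members was -0.01 and that of all genes was 0.00019. At an unadjusted p under 0.05 there were 27 members (34.6%, against 24% of all genes). The groups did not overlap in 9 members (11.5%), against 11.2% of all genes. Scaled by library totals without TMM factors, 16 members were called, 6 higher and 10 lower; the higher share of members' calls then was 37.5% rather than 21.4%, and that of all genes 67.6% rather than 57.0%. With a striatal marker score as a covariate no member was called (0 of 78; 7 at an unadjusted p under 0.05) and no gene was (675 unadjusted). The fitted values of 4 members were larger than without it, with wide errors: Kcnj2 -1.60 (SE 0.32), Kcne1l -1.71 (SE 0.69), Kcnk5 -2.08 (SE 0.95) and Kcnc2 0.28 (SE 0.14). For 4 others they were smaller and for 6 the sign turned, the latter with SE between 0.14 and 0.52. Since the striatal sums of the groups do not overlap, striatal RNA and treatment cannot be told apart in these 9 libraries.

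**Figure D1:**
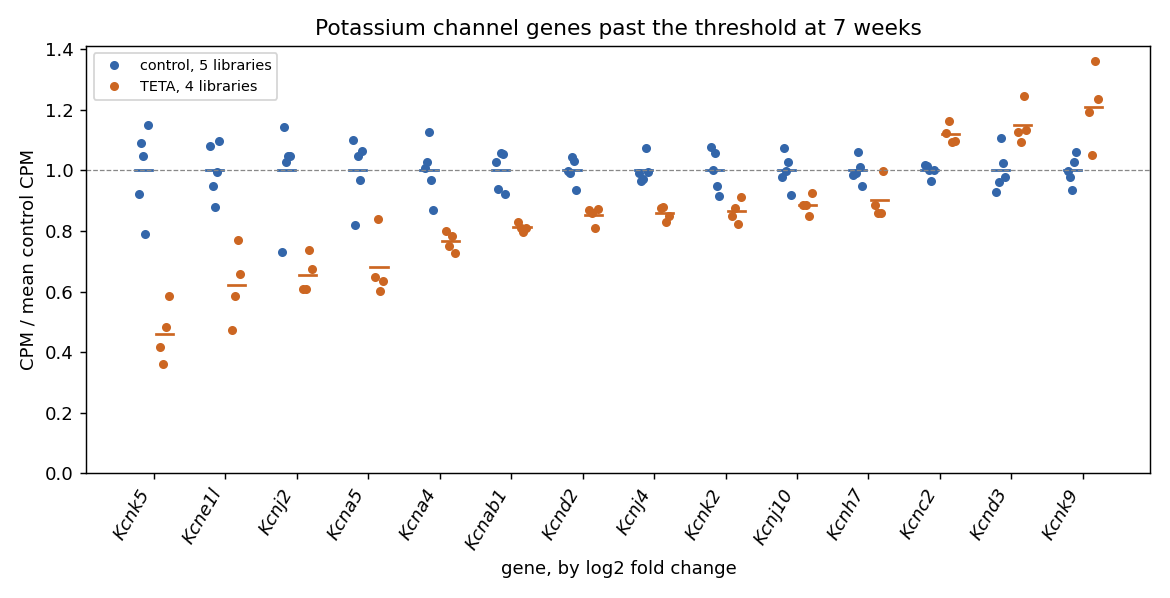
CPM of each of the 14 members called at 7 weeks in each library, divided by the mean of the 5 control libraries (blue, control; orange, the 4 TETA libraries; horizontal bars, group means; dashed line, 1). Kcnk5, Kcne1l and Kcnj2 lie lowest in TETA, while Kcnc2, Kcnd3 and Kcnk9 lie above 1.

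The inward rectifiers held 3 of the calls, all lower, of 13 tested; of all genes 4.28% were called lower. Kcnj2 encodes Kir2.1, a strong inward rectifier that holds the resting potential. Its level in controls was 22.9, 35.7, 32.2, 32.7 and 32.8 CPM, and in TETA 19.0, 19.0, 23.0 and 21.1 CPM. Control replicate 1 lay at the level of the TETA libraries, so the groups overlapped, and the other 4 controls lay above all TETA libraries. The log2 fold change was -0.59 (SE 0.097, adjusted p = 0.000482, edgeR), and without control replicate 1 it was -0.69. Kcnj4 encodes Kir2.3, another strong rectifier, found in forebrain neurons. Kcnj4 was at 184, 179, 180, 199 and 184 CPM in controls and at 162, 163, 153 and 157 CPM in TETA, with no overlap. Its log2 fold change was -0.21 (SE 0.036, adjusted p = 0.000793, edgeR).

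Kcnj10 encodes Kir4.1, the channel through which astrocytes take up potassium. It was at 231, 253, 235, 242 and 216 CPM in controls and at 208, 209, 200 and 218 CPM in TETA. The highest TETA library passed the lowest control. The log2 fold change was -0.16 (SE 0.039, adjusted p = 0.0106, edgeR). The sum of 6 astrocyte markers was also lower, at 4824 to 5472 CPM in controls and 4322 to 4691 CPM in TETA with 2 of 6 called lower and none at 0; its part in the Kcnj10 difference was not tested. In bulk tissue fewer cells of a type and less RNA per cell cannot be told apart. The G-protein-opened channel genes Kcnj3, Kcnj6 and Kcnj9 did not pass. Kcnj3 had a log2 fold change of -0.13 (adjusted p = 0.0553, edgeR), and passed with DESeq2 (adjusted p = 0.0364) and without the filter on low counts (adjusted p = 0.0483). Kcnj9 was at 238 to 251 CPM in controls and 251 to 260 CPM in TETA, without overlap but with an adjusted p of 0.104 (edgeR). Kcnj8, the pore of the vascular ATP-sensitive channel, gave 0.17 (adjusted p = 0.372). Summed over the subfamily, Kir RNA was 263 to 278 CPM per kb in controls and 244 to 255 CPM per kb in TETA.

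The 3 inward rectifier genes lie on different chromosomes. Their promoters, 250 bases before the RefSeq start and shown here because these genes fell together, are as follows (RefSeq, GRCm38.p6; printed 5′ to 3′ in the direction of transcription; capitals mark GGGCGG or its reverse complement CCGCCC, the GC box).
Kcnj2: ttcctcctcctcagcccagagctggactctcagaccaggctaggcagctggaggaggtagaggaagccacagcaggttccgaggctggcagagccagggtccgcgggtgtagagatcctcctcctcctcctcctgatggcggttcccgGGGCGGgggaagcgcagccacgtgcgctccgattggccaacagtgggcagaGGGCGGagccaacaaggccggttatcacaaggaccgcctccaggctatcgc
Kcnj4: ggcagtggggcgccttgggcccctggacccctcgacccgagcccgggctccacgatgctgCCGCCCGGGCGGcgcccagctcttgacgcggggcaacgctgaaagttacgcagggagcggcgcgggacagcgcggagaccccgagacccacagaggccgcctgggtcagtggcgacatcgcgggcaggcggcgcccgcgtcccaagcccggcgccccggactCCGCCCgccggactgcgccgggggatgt
Kcnj10: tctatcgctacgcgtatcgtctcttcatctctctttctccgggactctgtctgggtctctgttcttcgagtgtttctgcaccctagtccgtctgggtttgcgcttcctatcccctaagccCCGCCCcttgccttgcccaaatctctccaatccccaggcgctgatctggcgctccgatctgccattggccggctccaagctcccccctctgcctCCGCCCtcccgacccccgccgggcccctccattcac
The windows are chr11:111065914-111066163 (plus strand) for Kcnj2, chr15:79505242-79505491 (minus strand) for Kcnj4 and chr1:172340960-172341209 (plus strand) for Kcnj10. They adjoin the annotated gene spans, chr11:111066164-111076821, chr15:79483714-79505241 and chr1:172341210-172374085 (GENCODE M21). Each window holds at least 1 GC box. Searched on both strands, the GC box was in 32.7% of all 32851 RefSeq promoter windows of this length, in 44.7% of the 94 windows of 69 members, and in 11 of the 21 windows of 13 members called at 7 weeks. The CRE letters TGACGTCA were in 1.55% of all windows, the EGR letters GCGTGGGCG in 0.536% and the TATA letters TATAAA in 12.4%. None of the 21 windows of called members held any of these 3 motifs; among all member windows TATAAA was in 3 and the other motifs in 0.

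Among voltage-gated pore subunits the calls went both ways. Kcnd2 and Kcnd3 encode Kv4.2 and Kv4.3, which carry the dendritic A-type current. Kcnd2 was at 119, 118, 124, 123 and 111 CPM in controls and 103, 102, 96.5 and 104 CPM in TETA. All TETA libraries lay below all controls, with a log2 fold change of -0.22 (SE 0.038, adjusted p = 0.000865, edgeR). Kcnd3 was at 74.8, 77.3, 89.0, 82.4 and 78.6 CPM in controls and 90.6, 88.0, 100.2 and 91.3 CPM in TETA. It moved up, by 0.22 (SE 0.049, adjusted p = 0.00728, edgeR), with 1 TETA library below the highest control. The KChIP genes, whose products bind Kv4, had no call among 4 tested; Kcnip2 gave 0.01 (SE 0.043).

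In the Kv1 group, 2 of 6 were called, both lower (4.28% of all genes). Kcna4 encodes Kv1.4, a fast-inactivating subunit of axons, and Kcna5 encodes Kv1.5. Kcna4 was at 25.1, 25.6, 28.0, 24.1 and 21.6 CPM in controls and 19.9, 18.7, 19.5 and 18.1 CPM in TETA. The groups did not overlap and the log2 fold change was -0.37 (SE 0.068, adjusted p = 0.00132, edgeR). Kcna5 was low, at 4.39 to 5.90 CPM in controls and 3.23 to 4.49 CPM in TETA, and overlapped by 1 library (-0.55, SE 0.13, adjusted p = 0.00979, edgeR). Kcna1 and Kcna2, the main juxtaparanodal subunits, were not called (-0.09, SE 0.043, and -0.04, SE 0.033). Kcnab1, which encodes the Kv beta 1 protein that binds Kv1 subunits and speeds inactivation, had the smallest p of all members. It was at 116, 106, 119, 119 and 104 CPM in controls and at 93.3, 91.1, 89.8 and 91.1 CPM in TETA. The TETA libraries were close together and below every control, with a log2 fold change of -0.29 (SE 0.043, adjusted p = 0.000227, edgeR).

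Kcnc2 encodes Kv3.2, a fast delayed rectifier of fast-spiking interneurons. It was at 132, 132, 130, 125 and 130 CPM in controls and 146, 151, 142 and 142 CPM in TETA, higher without overlap (0.17, SE 0.033, adjusted p = 0.0019, edgeR). Summed interneuron markers went the other way, at 934 to 974 CPM in controls and 887 to 924 CPM in TETA, with 2 of 7 called lower; 3 of the 7 had values above 0, each with an unadjusted p under 0.05. Their part in the Kcnc2 difference was not tested. Kcnh7, an ERG channel gene, was called lower (-0.14, SE 0.041, adjusted p = 0.0365, edgeR), at 249 to 278 CPM in controls and 225 to 262 CPM in TETA. This call was lost on leaving out any of 6 of the 9 libraries (control replicates 2, 3 and 4 and TETA replicates 1, 2 and 3) and without TMM factors (adjusted p = 0.0576). No member of Slo, BK beta, SK or the electrically silent group was called at 7 weeks. For Kcnq3, a Kv7 gene of the M-current, the value was -0.08 (SE 0.033, adjusted p = 0.158, edgeR). The calcium-gated Kcnma1 gave -0.05 and the sodium-gated Kcnt1 0.12 (adjusted p = 0.0616, edgeR); Kcnt1 passed without TMM factors (adjusted p = 0.0336) and without control replicate 5 (adjusted p = 0.0119). Kcnc1 and Kcnk1 gave 0.02 and -0.01.

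The K2P group had 3 calls of 10 tested, 1 higher and 2 lower (of all genes 5.67% and 4.28%). Kcnk9 encodes TASK-3, a pH-sensitive leak channel. It was at 145, 142, 136, 150 and 154 CPM in controls and 174, 153, 198 and 180 CPM in TETA. The second TETA library lay within the controls and the other 3 lay above them (0.29, SE 0.054, adjusted p = 0.00168, edgeR). Kcnk2 encodes TREK-1, a mechanically gated leak channel. It was at 68.4, 63.6, 67.3, 60.3 and 58.3 CPM in controls and 54.0, 55.6, 52.2 and 58.1 CPM in TETA, so the highest TETA library was just below the lowest control. Its log2 fold change was -0.20 (SE 0.049, adjusted p = 0.0119, edgeR), and the call was lost without TETA replicate 3 (adjusted p = 0.0544). Kcnk5 encodes TASK-2 and showed the largest fitted change of the called members, from 19 to 33 counts per control library to 8 to 15 per TETA library. In CPM these were 1.2, 1.42, 1.36, 1.02 and 1.49 against 0.540, 0.467, 0.628 and 0.761, and the log2 fold change was -1.10 (SE 0.23, adjusted p = 0.00463, edgeR). Kcne1l, an X-linked KCNE subunit gene, was similarly low, at 2.1 to 2.62 CPM in controls and 1.13 to 1.84 CPM in TETA (-0.67, SE 0.18, adjusted p = 0.0176, edgeR). The call was lost without TETA replicate 1 (adjusted p = 0.0737).

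Exons of several of these genes overlap a gene on the other strand, and the strand option of the counting is not given in the sources used here, so their counts are uncertain to that extent. The overlap was 201 bases of 8593 for Kcnab1 (A330015K06Rik), 165 of 9587 for Kcnd3 (Kcnd3os), 696 of 15226 for Kcnh7 (Gca), 604 of 4943 for Kcnk2 (A430027H14Rik), 1621 of 5215 for Kcnj3 (Gm26794) and 2355 of 5945 for Kcna6 (Gm26673).

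Of 35 genes whose products bind or depend on these channels, 33 were tested at 7 weeks and 5 were called, all lower (15.2%, against 9.96% of all genes), among them Dlg4, Dlg2 and Adam23. Dlg4 and Dlg2 encode PSD-95 and PSD-93, scaffold proteins that cluster Kv1 and Kir2 channels. Dlg4 gave -0.17 (adjusted p = 0.000404, edgeR) and Dlg2 -0.11 (adjusted p = 0.0201, edgeR). Adam23, whose product binds LGI1, gave -0.20 (adjusted p = 0.000958, edgeR). For these 3 the control and TETA libraries did not overlap, as in 11.2% of all genes. Some partners that were not called also did not overlap, such as Lgi1 (lower) and Abcc9 (higher).

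At E18.5 no potassium channel gene was called among 77 tested (0%), and neither was any of the 13794 genes tested (0%; edgeR). At an unadjusted p under 0.05 there were 3 members (3.90%, against 4.78% of all genes): Kcnh6 (-0.30, SE 0.13), Kcna6 (0.10, SE 0.045) and Kcnj4 (0.21, SE 0.10), each with an adjusted p of 0.996 (edgeR). The groups overlapped in every member tested, and in all but 0.319% of genes. DESeq2 called 0 members, 2 at an unadjusted p under 0.05, and 10 genes in all. Kcnj4 was at 6.67 to 7.58 CPM in controls with a median of 7.13 CPM, and at 5.86 to 10.5 CPM in TETA with a median of 8.14 CPM. For the other members called at 7 weeks, the E18.5 log2 fold changes ran from -0.08 for Kcna4 to 0.09 for Kcna5. None of the 32 partner genes tested was called.

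**Figure D2:**
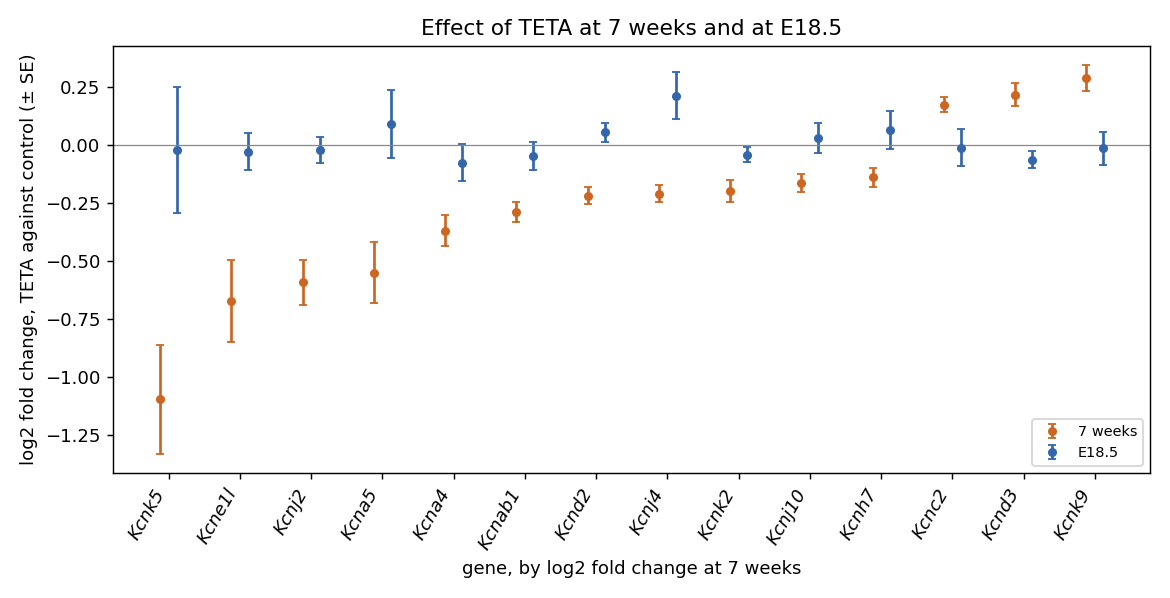
Log2 fold change of TETA against control (points, with bars of 1 SE) at 7 weeks (orange) and E18.5 (blue) for the 14 members called at 7 weeks. The 7-week values run from -1.10 for Kcnk5 to 0.29 for Kcnk9, and the E18.5 value of Kcnj4 lies at 0.21, on the other side of 0 from its 7-week value.

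Whether the TETA effect differed between stages was tested by the interaction over all 21 libraries. E18.5 libraries carry 2-part replicate numbers (such as 1-1 and 1-2) whose meaning is not given, and each was counted separately. Of 81 members tested, 5 were called (6.17%, against 3.1% of all 14660 genes), 1 with a higher effect at 7 weeks (1.23%, against 1.67%) and 4 with a lower one (4.94%, against 1.43%). The differences of log2 fold changes, 7 weeks less E18.5, were -0.58 for Kcnj2 (adjusted p = 0.0029), -0.28 for Kcnd2 (0.00444), 0.27 for Kcnd3 (0.0112), -0.43 for Kcnj4 (0.0146) and -0.66 for Kcne1l (0.0365), all by edgeR's quasi-likelihood test. Kcnd2 and Kcnd3 thus differed in opposite directions. All 14 striatal markers were also called lower in this test, with a median difference of -1.21. The interaction was not fitted with the striatal score. Striatal RNA and the TETA effect on these genes therefore cannot be told apart here. Without TMM factors 7 members were called, 3 higher and 4 lower, and the higher share of all calls was 72.0% rather than 54.0%. The Kcne1l call was lost on leaving out any of 10 of the 21 libraries: control 2-1 and 3-2 and TETA 1-1 and 3-2 at E18.5, and control 1, 4 and 5 and TETA 1, 2 and 4 at 7 weeks. The other 9 members called at 7 weeks did not pass this test, among them Kcnab1 (-0.26, adjusted p = 0.0612, edgeR; 0.0294 with DESeq2). For the partner genes, 2 of 33 were called, Dlg4 (-0.20) among them.

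Between stages most potassium channel genes differed severalfold, in the controls. Of 80 members tested, 76 were called (95%, against 89.5% of all 14375 genes), 65 higher at 7 weeks (81.3%, against 44.0%) and 11 lower (13.8%, against 45.5%). At least 2-fold higher were 51 members (63.8%, against 22.8%), and at least 2-fold lower 8 (10%, against 17.8%). The median log2 fold change was 1.82, against -0.02 for all genes; without TMM factors these medians were 1.67 and -0.17. In 71 members (88.8%, against 80.2% of genes) the groups did not overlap. Stage, deposited table, dissected tissue and possibly sex cannot be told apart here. All 6 oligodendrocyte and 6 astrocyte markers were called higher at 7 weeks and all 6 progenitor markers lower, none at 0 in either group: the sums went from 41.8 to 50.8 CPM up to 6400 to 7533 CPM, from 407 to 476 CPM up to 4824 to 5472 CPM, and from 291 to 318 CPM down to 53.6 to 60.8 CPM. Neuronal lists were mixed. Of 8 cortical excitatory neuron markers 1 was called higher and 6 lower, of 5 neuron markers 3 and 2, and of 7 interneuron markers 6 and 1. The sum of each of these neuronal lists was higher at 7 weeks without overlap. The part of any of these markers in the differences between stages was not tested.

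**Figure D3:**
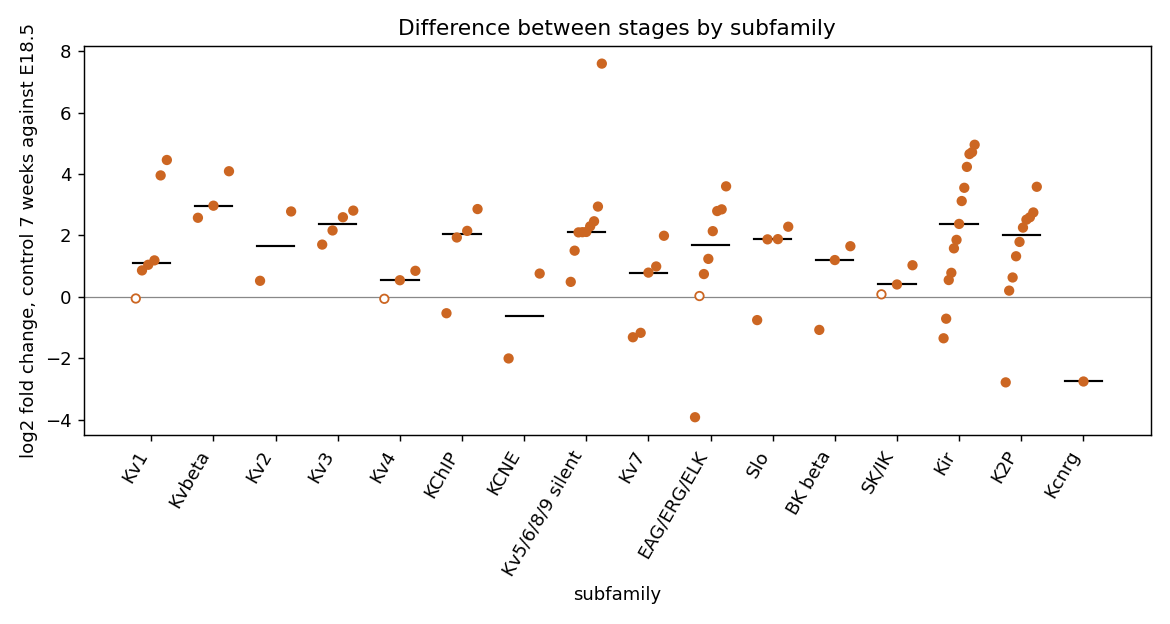
Log2 fold change between control libraries at 7 weeks and at E18.5 for the 80 members tested, by subfamily (filled points, adjusted p under 0.05; open points, not called; black bars, medians). Most points lie above 0; the lowest is Kcnh8 at -3.92 and the highest Kcng4 at 7.59.

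Inward rectifiers, Kv1 and Kv beta genes supplied most of the largest rises. Kcnj4 went from a median of 7.13 CPM at E18.5 (6.67 to 7.58) to 184 CPM at 7 weeks (179 to 199), a log2 fold change of 4.71 (SE 0.049). Kcnj9, a G-protein-opened Kir3 gene, went from 9.89 CPM (8.87 to 10.7) to 246 CPM (238 to 251), by 4.65. Kcnj16, which pairs with Kir4.1, rose by 4.23 (SE 0.092) and Kcnj10 by 3.55 (SE 0.048). Kcna1 rose by 4.46 (5.28 to 7.08 CPM at E18.5, 128 to 139 CPM at 7 weeks), Kcna2 by 3.96, Kcnab2 by 4.09 and the EAG gene Kcnh1 by 3.60. Kcng4, an electrically silent subunit that joins Kv2, had the largest value, 7.59 (SE 0.25), which rests on 5 counts over the 6 E18.5 controls and 921 over the 5 at 7 weeks. Its E18.5 row is among those divided by 11; with the counts as deposited the value was 4.35, below those of Kcnj4 and Kcnj9 given above. Kcnk1 rose by 2.51, Kcnj3 by 2.38, Kcnj6 by 3.12, Kcnip2 by 1.93, Kcnt1 by 1.88, Kcnma1 by 1.87, Kcnc1 by 1.70, Kcnq3 by 0.99 and Kcnd2 by 0.85. The largest adjusted p among these rises was that of Kcnq3, 4.07e-15 (edgeR).

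Genes lower at 7 weeks than at E18.5 were fewer. Kcnh8, an ELK channel gene, went from 4.72 to 6.87 CPM at E18.5 to 0.216 to 0.567 CPM at 7 weeks (-3.92). Kcnk10, the TREK-2 gene, went from 58.8 to 64.6 CPM to 8.69 to 9.35 CPM (-2.78, SE 0.052), while its relative Kcnk2 was at 53.6 to 56.3 CPM and 58.3 to 68.4 CPM (0.21, SE 0.044). The Kcnk2 call was lost without TMM factors (0.05, adjusted p = 0.26) and with TETA libraries in place of controls (0.04, adjusted p = 0.368). Kcne1l fell by 2.00 on the log2 scale, the BK beta gene Kcnmb2 by 1.07, Kcnu1 by 0.75, Kcnj8 by 0.71 and Kcnip1 by 0.53. Outside the naming rule, 3 more were lower: Kcnrg (-2.73), a regulator of Kv assembly, Kcnj5 (-1.35) and Kcnq1 (-1.17). The members nearest to 0 were Kcnh4 (0.03), Kcna3 (-0.05) and Kcnd3 (-0.06), all not called. These values depended on the scaling and the libraries: without TMM factors Kcnd3 (-0.21, adjusted p = 7.1e-05) and Kcna3 (-0.20, adjusted p = 0.0286) were called lower by edgeR, and Kcnd3 also without 7-week control 3 (-0.10, adjusted p = 0.0304). The same comparison in the TETA libraries gave 0.21 for Kcnd3 (adjusted p = 0.000128, edgeR) and 0.26 for Kcnh4 (adjusted p = 0.00107, edgeR).

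Subfamilies differed in how far they moved. All 9 electrically silent genes tested, all 4 Kv3 genes and all 3 Kv beta genes were called higher, as were 9 of 10 K2P and 11 of 13 Kir genes, against 44.0% of all genes. Median log2 fold changes were 2.97 for Kv beta, 2.38 for Kir and Kv3, 2.12 for the silent group, 2.04 for KChIP (3 called higher and 1 lower, of 4) and 2.02 for K2P, against 0.54 for Kv4, 0.41 for SK and -0.62 for the 2 KCNE genes tested; the single gene Kcnrg gave -2.73. The 65 higher calls comprised 56 of 67 pore genes and 9 of 13 auxiliary genes. Among partners all 33 tested were called, 27 higher and 6 lower; of all genes 89.5% were called, 44.0% higher and 45.5% lower.

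Per kb of exon, summed potassium channel RNA was 324 ± 7.84 CPM per kb (SD, n = 6) in E18.5 controls and 326 ± 9.62 (SD, n = 6) in E18.5 TETA. At 7 weeks it was 1271 ± 14.9 (SD, n = 5) in controls and 1239 ± 31.5 (SD, n = 4) in TETA. Several genes of high level in the E18.5 controls were close: Kcnd2 (12.9), Kcnmb4 (11.6), Kcnk2 (11.2), Kcna6 (11.1) and Kcnip3 (10.5) each overlapped with the next. At 7 weeks the order of the controls was Kcnab2 (95.4), Kcnj4 (86.0), Kcnj9 (57.1) and Kcnk1 (52.1), none of which overlapped with the next, followed by Kcnf1 (47.3), Kcnip3 (46.3) and Kcnj10 (43.5), which overlapped in turn. Kir genes made up 10.01% of the summed level in E18.5 controls and 21.2% at 7 weeks, and Kv7 genes 13.3% and 6.40%.

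**Figure D4:**
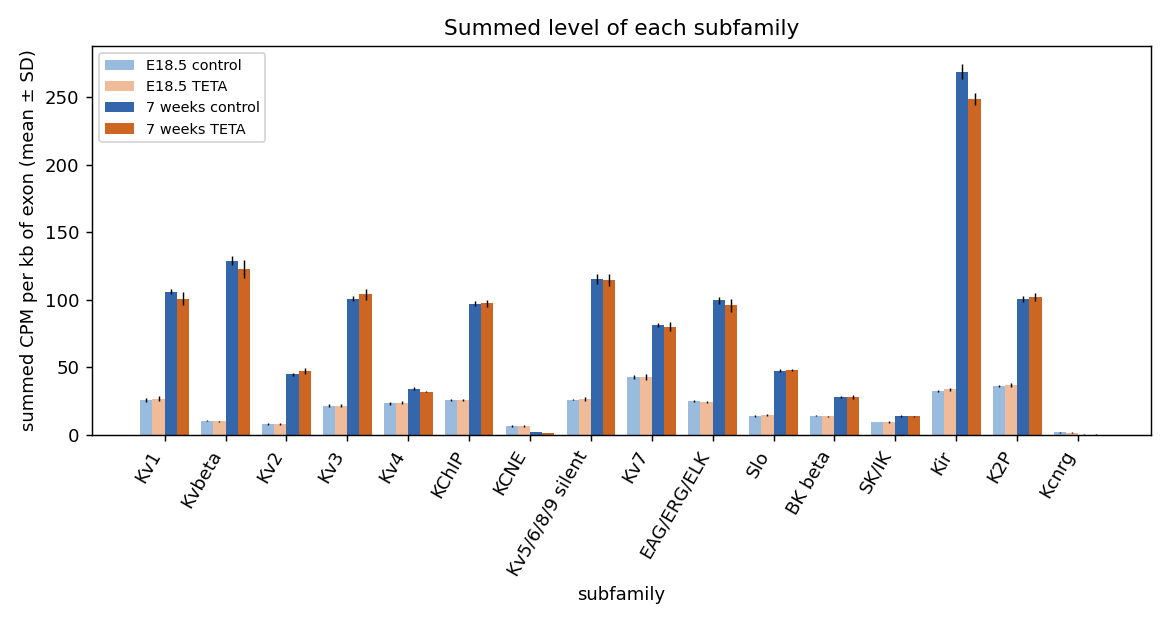
Summed CPM per kb of each subfamily (bars, means; error bars, SD) in E18.5 control (6 libraries), E18.5 TETA (6), 7-week control (5) and 7-week TETA (4) libraries. Kir has the largest absolute increase between stages, from 32.4 to 269 CPM per kb in controls, and is at 249 CPM per kb in 7-week TETA libraries.

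Kcnj13, a Kir gene known from choroid plexus, was at 0.769 to 1.78 CPM in 7-week controls and 0.315 to 1.28 CPM in TETA, with no call (-0.26, adjusted p = 0.689, edgeR). The choroid plexus marker sum was 3.98 to 62.0 CPM in the same controls, where 1 library stood far above the rest, and 2.59 to 5.66 CPM in TETA. Of the 1270 exon bases of Kcnj13, 623 overlap Gigyf2 on the other strand.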

How the data were processed

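RNA was sequenced from 21 mouse brain libraries in 4 groups. Per the submitters' processing notes, reads were handled with STAR 2.7.1a and featureCounts 2.0.1 on mm10. The authors deposited whole-number counts per gene symbol, 1 table for each stage. In the E18.5 table, 1940 rows at 0 in control 1-1 hold only multiples of 11 elsewhere (7 of them members); they were divided by 11, and the counts as deposited were an alternative.

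Each stage was fitted alone with edgeR 4.0.16 in R 4.3.3: filterByExpr with a minimum count of 10, TMM scaling, quasi-likelihood test, Benjamini-Hochberg adjustment over all genes, threshold 0.05. The SE is the size of the log2 fold change divided by the square root of F. Stages were compared in controls, and the interaction over all 4 groups. The tests were checked on simulated data. DESeq2 1.42.0, other filters and scalings, a striatal score and leaving out libraries were tried. Exon lengths and positions came from GENCODE M21, which matched 94 of 94 members.

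Members called in TETA comparisons were all named, with the 3 smallest p where none was; between stages, the 8 largest rises and 8 largest falls of at least 5 CPM and the 3 members nearest 0, plus a fixed list. Some genes that this rule names are not reported here. Members and lists were chosen with earlier results of these data known. The lowest chi-square per gene between replicate libraries was 2.30, so none was counted as a duplicate.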

Additional observations from a re-analysis of the deposited data

Results flagged for a closer look

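The test of the difference between stages flagged 5 members, with differences of the TETA effect, 7 weeks less E18.5 on the log2 scale, of -0.58 for Kcnj2, -0.28 for Kcnd2, 0.27 for Kcnd3, -0.43 for Kcnj4 and -0.66 for Kcne1l. The 14 striatal markers were all called lower in the same test.

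Of 160 groups of libraries examined for named members, 14 had 1 library apart from the rest, where chance at 1 in 20 gives 8. The values here are the library's gap to its nearest neighbour as a share of the group's range, on the scale of log2(CPM + 1). At 7 weeks, Kcnj2 was low in control 1 (0.764; 22.9 CPM against 32.2 to 35.7), Kcna6 was low in TETA 2 (0.851), Kcng4 was high in control 2 (0.742) and Kcnj13 was low in TETA 1 (0.905; 7 counts). At E18.5, TETA 2-2 was low for Kcna1 (0.663) and Kcna2 (0.679) and high for Kcnj9 (0.645). TETA 3-1 was high for Kcna6 (0.640) and Kcnt1 (0.642). Control 1-2 was high for Kcnip2 (0.808) and Kcnk9 (0.742), control 1-1 was low for Kcnd3 (0.744), and control 2-2 was high for Kcnj13 (0.655; 3 counts). Kcng4 in TETA 3-2 (1) rests on 1 count against 0 in the other libraries.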

How the results depend on the processing

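At 7 weeks the 14 calls became 16 without a filter, 12 at a mean of at least 50 counts, 15 with DESeq2 and 12 to 18 on leaving out 1 library. With the striatal score as a covariate there were 0, and 6 values turned. These were Kcna5 at 0.10 (SE 0.52), Kcnab1 at 0.00089 (SE 0.17) and Kcnd2 at 0.051 (SE 0.14). Kcnd3 was at -0.059 (SE 0.19), Kcnk2 at 0.14 (SE 0.19) and Kcnk9 at -0.34 (SE 0.17). For all but Kcnk9 the SE was larger than the value. The other 8 kept their sign, 4 of them with larger values and wider errors (Kcnj2 -1.60, Kcne1l -1.71, Kcnk5 -2.08, Kcnc2 0.28). The cause was not tested. Summed striatal markers did not overlap between the groups, so striatal RNA and treatment cannot be told apart. At E18.5 there were 0 members called under every alternative run, including the counts as deposited and libraries with the same first number summed. That summing was not run for the stage or interaction tests. Between stages 69 to 78 were called, and with TETA libraries in place of controls Kcnd3 turned to 0.21; with the counts as deposited Kcng4 fell from 7.59 to 4.35. The interaction gave 4 to 7. Correlations of the deviations of same-numbered libraries ran from -0.114 to -0.0356 at 7 weeks and from -0.325 to 0.333 at E18.5. Differently numbered libraries were not compared, so these values cannot decide whether the numbers pair the libraries. With the number as a replicate block, which at 7 weeks also leaves out the unpaired control 5, 15 members were called at 7 weeks and 0 at E18.5; without control 5 alone 18 were. Of the 14, 13 remained, and the Kcne1l call was lost (-0.65, adjusted p = 0.0712, edgeR). Kcnt1 was among the 2 gained, as it was without control 5 alone.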
